A study of Mus musculus with 7 samples.

Results

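The 10 genes described here were Bnip3, Ankrd37, Car9, Ndufa4l2, Ndrg1, Adm, Higd1a, Stc2, Ppp1r3c and Mif, a set of hypoxia-responsive genes outside glycolysis. They were taken by name from a list of such genes, though the choice was made with earlier results of these data known. They were 10 of the 55401 genes counted in mouse lung RNA. All 10 passed the filter on low counts, which left 17465 genes for testing. In BLM+HBO lungs 2 of them were lower at an unadjusted P below 0.05, namely Stc2, at 7.26 ± 2.58 against 12.0 ± 1.32 CPM (read counts scaled to library size), and Mif, at 48.4 ± 4.87 against 59.4 ± 2.86 CPM (mean ± SD, 3 BLM+HBO and 4 BLM mice). None of the 17465 genes passed an adjusted P of 0.05 in the edgeR test, while 1861 had an unadjusted P below 0.05. By DESeq2 155 genes passed adjustment and by edgeR without the filter 387 did, none of the 10 among them.

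Hypoxia-inducible factor (HIF) is a transcription factor whose alpha subunit is hydroxylated and degraded when oxygen is plentiful and accumulates when oxygen is scarce. It then pairs with ARNT and binds DNA at a short core, A or G followed by CGTG, near its target genes. Besides the enzymes of glycolysis, these targets include secreted signals such as adrenomedullin, proteins of the mitochondrion such as the mitophagy receptor BNIP3, and enzymes that handle acid or glycogen. In the lung, hypoxic signalling is known from injured epithelium, vessels and inflammatory cells.

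All mice were male C57BL/6 animals aged 6 to 8 weeks that had received bleomycin, an antibiotic that injures the lung and leads to fibrosis. The 4 BLM mice had bleomycin without hyperbaric oxygen (HBO). The 3 BLM+HBO mice had bleomycin and then HBO, oxygen breathed in a pressure chamber, at 2.5 ATA for 90 min a day on 14 days starting at day 7, and all lungs were taken at day 21. The sample records place the BLM mice in the chamber without oxygen under pressure, whereas the study's methods describe them as untreated, and which of these applied is not settled here. According to the methods, mice that had not lost enough weight after bleomycin were left out of the study. No mouse without bleomycin was analysed here, so a gene's level cannot be set against a healthy lung, and the RNA came from whole right lobes, where fewer cells of a type and less RNA per cell cannot be told apart.

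Each library was 1 mouse and held between 18157161 and 26365969 counted reads. Markers of alveolar type 2 cells, which make surfactant, summed to 8745 CPM or more in every mouse of this lung series. In a principal component analysis BLM+HBO 2 lay at -0.996 on the first component, away from BLM+HBO 1 at 54.8 and BLM+HBO 3 at 37.8 and nearest to the BLM mice, whose highest value was -6.08. Nothing in its label sets BLM+HBO 2 apart, and the results of the 10 genes and the counts of the glycolytic, other HIF and oxygen-sensing lists are given with and without it. It was singled out by its values in these same data, so results without it are a description and not evidence of a difference. The summed CPM of 5 fibroblast markers was 1404, 4335 and 2395 in the 3 BLM+HBO mice and 4211 to 6675 in the BLM mice, and that of 5 markers of macrophages in fibrosis was 1134, 3916 and 1483 against 4571 to 5871. At an unadjusted P below 0.05, all 5 fibroblast markers and 4 of the 5 macrophage markers were lower in BLM+HBO, beside 5.54% of all genes. Of 8 heart muscle markers 7 were higher at that threshold, beside 5.11% of all genes, with sums of 629, 508 and 150 CPM against 58.9 to 169. Every gene of these 3 lists passed the filter, so none was at 0 in all mice. The part of these cell types in the results that follow was not tested.

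The promoters of 8 of the 10 genes were in the RefSeq promoter table for GRCm38.p6, which covers 250 bases before to 50 bases after each start site. The table as used here held no entry for Ndrg1 or Ndufa4l2. ACGTG, on either strand, was found in 6 of the 8 genes (75%), in 13 of 20 glycolytic HIF targets (65%) and in 21.8% of all 27025 genes of the table. ACGTG or GCGTG was found in 8 of 8, in 17 of 20 (85%) and in 46.7% of all genes. A gene counted when any of its listed start sites held the letters. In Bnip3 and Ppp1r3c, ACGTG read on both strands overlapped to form CACGTG, the E-box, which 8.09% of all genes held. Such a match is a description of the letters and not a measured binding site.

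The stretches below show the HIF core letters in the 5 genes with a match before the start site in a stretch of which at most 30 bases are annotated exon. Of these only Stc2 passed the test, and Mif, which also passed, had no match before its start site. Each is 100 bases, 5′ to 3′ along the gene's strand, from RefSeq on GRCm38.p6, with ACGTG or GCGTG on either strand in capitals. They lie at chr11:31370212-31370311 (minus strand) for Stc2, chr7:110627555-110627654 (plus strand) for Adm, chr8:45999851-45999950 (minus strand) for Ankrd37, chr7:138909562-138909661 (minus strand) for Bnip3 and chr19:36736656-36736755 (minus strand) for Ppp1r3c. The Ankrd37 stretch includes 17 bases of an annotated exon of that gene, and the other 4 stretches hold no annotated exon.
Stc2: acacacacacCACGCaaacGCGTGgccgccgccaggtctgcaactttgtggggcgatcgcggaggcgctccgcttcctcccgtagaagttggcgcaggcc
Adm: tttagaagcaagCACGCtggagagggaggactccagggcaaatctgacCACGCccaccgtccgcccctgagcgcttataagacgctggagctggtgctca
Ankrd37: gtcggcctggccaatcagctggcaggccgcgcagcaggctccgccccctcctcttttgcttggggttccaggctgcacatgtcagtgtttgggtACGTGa
Bnip3: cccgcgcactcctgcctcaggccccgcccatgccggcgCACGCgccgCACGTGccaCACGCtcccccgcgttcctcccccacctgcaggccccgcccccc
Ppp1r3c: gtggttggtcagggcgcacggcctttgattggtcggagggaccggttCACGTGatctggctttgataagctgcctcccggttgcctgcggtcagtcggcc

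In Stc2 the capitals lay at bases -240 to -236 and -231 to -227 from the start site, and in Adm at -90 to -86 and -54 to -50, each of them GCGTG. Ankrd37 held ACGTG at -6 to -2 in the stretch shown. The 6 bases of CACGTG lay at -108 to -103 in Bnip3 and at -104 to -99 in Ppp1r3c. The only match of Mif lay at 30 to 34 after the start site.

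Among the secreted signals, Stc2 (ENSMUSG00000020303.2, chr11:31357307-31370074), which encodes the glycoprotein stanniocalcin-2, was measured at 14.0, 11.7, 11.4 and 11.1 CPM in BLM mice 1 to 4 and at 5.70, 10.2 and 5.85 CPM in BLM+HBO mice 1 to 3. Every BLM+HBO mouse was below every BLM mouse, and BLM+HBO 2 came closest to the BLM group. At an unadjusted P below 0.05, Stc2 fell by 0.73 on the log2 scale (SE 0.24, 95% interval -1.26 to -0.20, edgeR quasi-likelihood test, adjusted P = 0.423), and its mean level was 1.66-fold higher in BLM. Without BLM+HBO 2 the log2 fold change was -1.06 (edgeR adjusted P = 0.045), and without BLM+HBO 3 it was -0.59 (adjusted P = 0.699), with an unadjusted P above 0.05. No other counted gene shared its exons, and no transcript nearly identical to it was found.

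Mif (ENSMUSG00000033307.7, chr10:75859353-75860240), the cytokine macrophage migration inhibitory factor, was at 58.1, 63.0, 60.3 and 56.4 CPM in the BLM mice and at 43.4, 48.6 and 53.2 CPM in the BLM+HBO mice. The groups did not overlap here either, and BLM+HBO 2 lay between its group mates. At the same threshold Mif fell by 0.30 on the log2 scale (SE 0.11, interval -0.53 to -0.06, edgeR adjusted P = 0.423), and its mean level was 1.23-fold higher in BLM, which is below the fold of 1.5 that the study required of a differentially expressed gene. Leaving out BLM+HBO 2 gave -0.30 (edgeR adjusted P = 0.301), with an unadjusted P below 0.05. The unadjusted P was above 0.05 without BLM 2 (-0.27, adjusted P = 0.698) and without BLM+HBO 1 (-0.22, adjusted P = 0.802) in the edgeR test. Transcripts of 3 other genes were at least 95% identical to Mif over stretches of up to 270 bases, and reads that map to several places were left out of the counts, so its level is uncertain.

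Adm (ENSMUSG00000030790.15, chr7:110627661-110629820), the precursor of the vasodilator peptide adrenomedullin, was at 15.8, 13.5, 15.5 and 15.2 CPM in the BLM mice and at 7.83, 16.3 and 10.7 CPM in the BLM+HBO mice. BLM+HBO 1 and 3 were below all BLM mice, and BLM+HBO 2 was the highest of the 7. Its log2 fold change was -0.37 (SE 0.23, interval -0.88 to 0.15, edgeR adjusted P = 0.595). Without BLM+HBO 2 it was -0.69 (edgeR adjusted P = 0.126), and without BLM+HBO 1 it was -0.15 (adjusted P = 0.88).

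**Figure D1:**
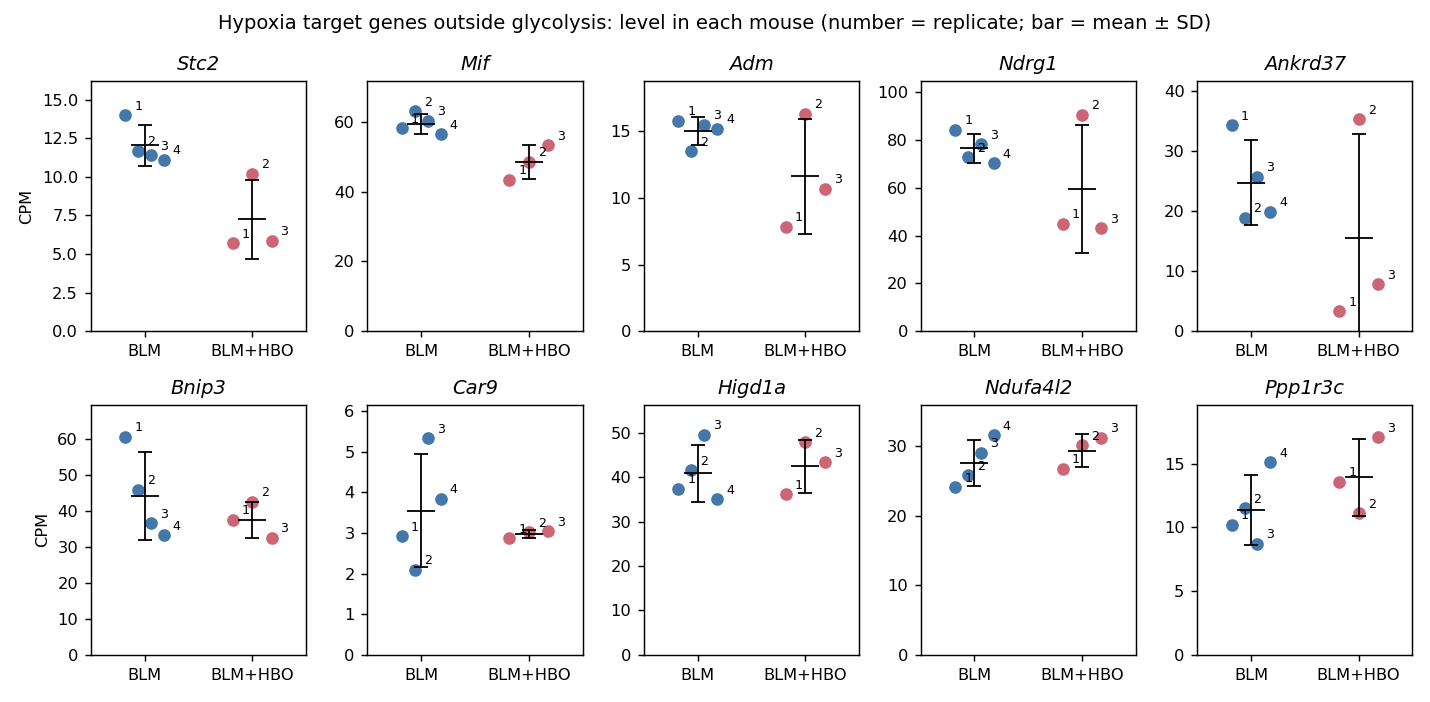
Level of each gene in CPM (vertical axes, from 0) in the 4 BLM and 3 BLM+HBO mice, with points numbered by mouse and black bars for the mean ± SD; the lower SD bar of Ankrd37 in BLM+HBO runs below 0 and is not drawn in full. The BLM+HBO points lie below all BLM points for Stc2 (5.70 to 10.2 against 11.1 to 14.0) and Mif (43.4 to 53.2 against 56.4 to 63.0), and BLM+HBO 2 is the highest point for Adm, Ndrg1 and Ankrd37.

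Ndrg1 and Ankrd37 encode proteins inside the cell that respond to hypoxia and other stress. Ndrg1 (ENSMUSG00000005125.13, chr15:66929318-66969640) was at 84.4, 72.9, 78.3 and 70.4 CPM in the BLM mice and at 45.0, 90.6 and 43.0 CPM in the BLM+HBO mice. As for Adm, BLM+HBO 1 and 3 were below all BLM mice and BLM+HBO 2 was above them. Its log2 fold change was -0.36 (SE 0.24, interval -0.90 to 0.17, edgeR adjusted P = 0.612). Without BLM+HBO 2 it was -0.80 (edgeR adjusted P = 0.0308), without BLM+HBO 1 it was -0.20 (adjusted P = 0.876) and without BLM+HBO 3 it was -0.18 (adjusted P = 0.901). Exons of 2 antisense genes covered 8.43% of its exon bases. Strand was ignored and reads shared between genes were dropped, so reads in these bases were lost and its level is uncertain.

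Ankrd37 (ENSMUSG00000050914.16, chr8:45996902-46005707), an ankyrin repeat protein, spread most. It was at 34.3, 18.9, 25.7 and 19.9 CPM in the BLM mice and at 3.30, 35.3 and 7.80 CPM in the BLM+HBO mice, so that the highest BLM+HBO value was 10.7 times the lowest. BLM+HBO 2 was above all BLM mice and its group mates were far below them. For all 7 mice the log2 fold change was -0.68 (SE 0.63, interval -2.08 to 0.73, edgeR adjusted P = 0.725). Without BLM+HBO 2 it was -2.14 (edgeR adjusted P = 0.0363), and without BLM+HBO 1 it was -0.20 (adjusted P = 0.938). These values rested on 62, 737 and 208 reads in the BLM+HBO mice and 335 to 623 in the BLM mice. Of its exon bases 26.4% were shared with the antisense genes Lrp2bp and Ufsp2, so reads there were lost in the same way and its level is uncertain.

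The genes of the mitochondrion showed no difference that passed the test. Bnip3 (ENSMUSG00000078566.8, chr7:138890836-138909519), whose product marks mitochondria for removal, was at 60.6, 45.9, 36.6 and 33.3 CPM in the BLM mice and at 37.5, 42.5 and 32.6 CPM in the BLM+HBO mice. The groups overlapped, and the highest value was that of BLM 1. The log2 fold change was -0.23 (SE 0.20, interval -0.68 to 0.22, edgeR adjusted P = 0.704), -0.33 without BLM+HBO 2 and -0.04 without BLM 1. The antisense gene Gm45507 covered 22.3% of its exon bases. The search for nearly identical transcripts found 5 genes, Gm45507 among them.

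Higd1a (ENSMUSG00000038412.8, chr9:121848563-121858362), a small inner-membrane protein of the respiratory chain, was at 37.4, 41.6, 49.5 and 35.0 CPM in the BLM mice and at 36.1, 47.8 and 43.3 CPM in the BLM+HBO mice. The groups lay over each other. The log2 fold change was 0.05 (SE 0.15, interval -0.28 to 0.39, edgeR adjusted P = 0.925) and turned to -0.04 without BLM+HBO 2 and to -0.01 without BLM 4. An antisense gene, Gm47112, covered 22.5% of its exon bases. The search for nearly identical transcripts found Gm47112 again and also Gm9790. The longest such stretch, 683 bases, was as long as the overlap with Gm47112, so that overlap may be counted in both. The level of Higd1a is uncertain.

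Ndufa4l2 (ENSMUSG00000040280.10, chr10:127514967-127517154), a relative of the respiratory chain subunit NDUFA4, was at 24.1, 25.8, 29.0 and 31.5 CPM in the BLM mice and at 26.7, 30.1 and 31.2 CPM in the BLM+HBO mice. No mouse stood apart from the others, and the BLM range enclosed the BLM+HBO range. The log2 fold change was 0.09 (SE 0.13, interval -0.20 to 0.38, edgeR adjusted P = 0.84) and 0.07 without BLM+HBO 2. Of its exon bases 2.92% were shared with antisense Shmt2.

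The remaining members are metabolic enzymes or their regulators. Car9 (ENSMUSG00000028463.14, chr4:43506966-43513729), a carbonic anhydrase of the cell surface that handles acid, was at 2.92, 2.09, 5.33 and 3.84 CPM in the BLM mice and at 2.87, 3.02 and 3.04 CPM in the BLM+HBO mice. All BLM+HBO values fell inside the BLM range. Between groups the log2 fold change was -0.25 (SE 0.33, interval -0.99 to 0.48, edgeR adjusted P = 0.816), -0.26 without BLM+HBO 2 and 0.01 without BLM 3. It rested on 37 to 97 reads per mouse. Exons of the antisense gene Gm12454 covered 9.29% of its exon bases.

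Ppp1r3c (ENSMUSG00000067279.3, chr19:36731731-36736653), which brings protein phosphatase 1 to glycogen, was at 10.2, 11.5, 8.73 and 15.1 CPM in the BLM mice and at 13.6, 11.1 and 17.1 CPM in the BLM+HBO mice. The groups overlapped, with the highest value in BLM+HBO 3. Its fitted log2 fold change was 0.29 (SE 0.22, interval -0.21 to 0.79, edgeR adjusted P = 0.657), 0.43 without BLM+HBO 2 and 0.11 without BLM+HBO 3. It was 1 of 3 members with a higher mean in BLM+HBO, beside Higd1a and Ndufa4l2.

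Levels were also compared between genes, per length, as FPKM, the CPM divided by the exon length in kilobases. The full exon length was used although reads in shared or repeated bases were dropped. Values of genes with many such bases, such as Bnip3, Ankrd37, Higd1a and Mif, may therefore be too low. In BLM lungs Mif was highest, at 79.8 ± 3.84 FPKM (SD over 4 mice), and every BLM value of Mif was above every value of the next gene. Ndufa4l2 followed at 25.2 ± 3.03, Bnip3 at 19.5 ± 5.4, Ankrd37 at 16 ± 4.6, Higd1a at 13.5 ± 2.10 and Ndrg1 at 11.6 ± 0.942 FPKM, and neighbours in this order had overlapping BLM ranges. Adm at 9.26 ± 0.645, Ppp1r3c at 4.18 ± 1 and Stc2 at 2.33 ± 0.256 FPKM each lay apart from the gene before them, and Car9 at 1.54 ± 0.603 overlapped with Stc2. In BLM+HBO lungs Mif was again highest, at a mean of 65.0 FPKM, and Car9 lowest, at 1.29 FPKM, close to Stc2 at 1.40 FPKM.

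The 10 genes together had a median log2 fold change of -0.27, against 0.01 over all genes tested, and 7 of the 10 had a lower mean in BLM+HBO, as did 48.8% of all genes. The 2 members lower at an unadjusted P below 0.05 stand beside 5.54% of all genes. Only Stc2 also passed a fold of 1.5, as did 2.89% of all genes in that direction and 6.29% in either. In 2 members the BLM+HBO mice all lay below the BLM mice, as in 4.72% of all genes, and in 0 members all above, as in 4.05%. No member was higher at this threshold, beside 5.11% of all genes. Without BLM+HBO 2 the members lower at an unadjusted P below 0.05 were 5, namely Stc2, Mif, Adm, Ndrg1 and Ankrd37, beside 8.46% of 17879 genes, and 3 of them passed an adjusted P of 0.05, as did 1.49% of those genes in either direction. The count was 1 when BLM 2, BLM+HBO 1 or BLM+HBO 3 alone was left out.

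**Figure D2:**
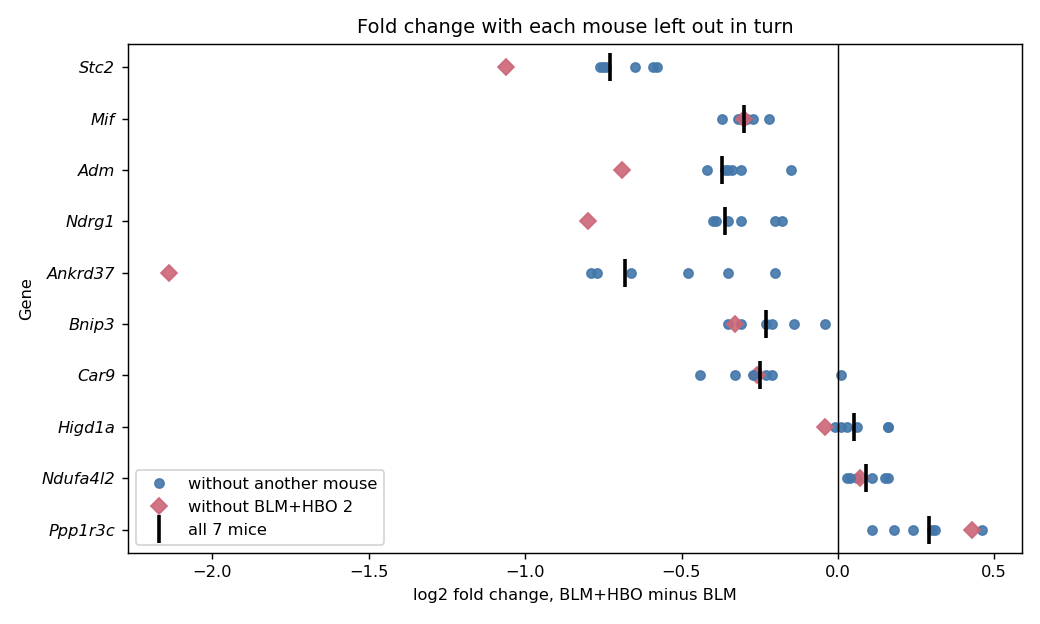
Log2 fold change of each gene, BLM+HBO minus BLM (horizontal axis), from all 7 mice (black bar) and with each mouse left out in turn (circles; diamond for BLM+HBO 2). Leaving out BLM+HBO 2 moves Ankrd37 from -0.68 to -2.14, Ndrg1 from -0.36 to -0.80 and Adm from -0.37 to -0.69, and leaves Mif at -0.30.

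By mouse, the median log2 distance of the 10 genes from their BLM mean was -0.33 in BLM+HBO 1, 0.05 in BLM+HBO 2 and -0.28 in BLM+HBO 3, and between -0.09 and 0.04 in the BLM mice. BLM+HBO 1 had the lowest value of the 7 mice in 4 genes (Stc2, Mif, Adm and Ankrd37) and BLM+HBO 3 in 2 (Ndrg1 and Bnip3). BLM+HBO 2 had the lowest value in 0 genes and the highest in 3. The fibroblast and macrophage sums given above were also lowest in BLM+HBO 1, next in BLM+HBO 3 and highest of the group in BLM+HBO 2. The heart muscle sums did not follow these mice, being above the BLM range in BLM+HBO 1 and 2 and inside it in BLM+HBO 3.

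The glycolytic HIF targets, 21 genes from the glucose transporters to the lactate exporter, served as the comparison. Their median log2 fold change was -0.20, and 16 of 21 were lower in the mean, beside 48.8% of all genes tested. At an unadjusted P below 0.05, 7 were lower, beside 5.54% of all genes, and none of these 7 passed a fold of 1.5. Without BLM+HBO 2 the median was -0.26. In that setting 9 of the 21 were lower at an unadjusted P below 0.05, beside 8.46% of all genes, with 0 at an adjusted P below 0.05. Slc16a3, which exports lactate, was lower by the edgeR test at an unadjusted P below 0.05 (log2 fold change -0.46, SE 0.13, adjusted P = 0.423), as were the enzymes Eno1 (-0.56, SE 0.17, adjusted P = 0.423), Pgam1 (-0.46, SE 0.14, adjusted P = 0.423), Pfkl (-0.35), Pkm (-0.43), Ldha (-0.32) and Tpi1 (-0.29). The glucose transporter Slc2a1 was at -0.40 (edgeR adjusted P = 0.5; -0.65 without BLM+HBO 2, adjusted P = 0.101), Pgk1 at -0.21 (adjusted P = 0.542; -0.31 without that mouse, adjusted P = 0.261) and Aldoa at -0.19 (adjusted P = 0.598). Of the 7 genes called, Slc16a3, Eno1 and Pgam1 held an unadjusted P below 0.05 in all 15 alternatives, whereas Pfkl (-0.25), Pkm (-0.35), Ldha (-0.23) and Tpi1 (-0.29) did not without BLM+HBO 1, nor any of these 4 without BLM+HBO 3. Pkm and Tpi1 also missed it without BLM 1, Tpi1 without BLM 2 and Ldha without BLM 3. Several of these enzymes have processed pseudogenes and Pkm shared 15.3% of its exon bases with Gm49759, so their counts are uncertain.

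Mouse by mouse, the glycolytic genes had medians of -0.31, -0.06 and -0.33 in BLM+HBO mice 1 to 3, beside the -0.33, 0.05 and -0.28 of the genes outside glycolysis. BLM+HBO 2 was the highest of the 7 mice in 1 of the 21 glycolytic genes and in 3 of the 10 others. Log2 fold changes ran from -0.56 to 0.33 among the glycolytic genes and from -0.73 to 0.29 among those outside glycolysis. Both lists were read from the same mice, and a difference between the lists was not tested.

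**Figure D3:**
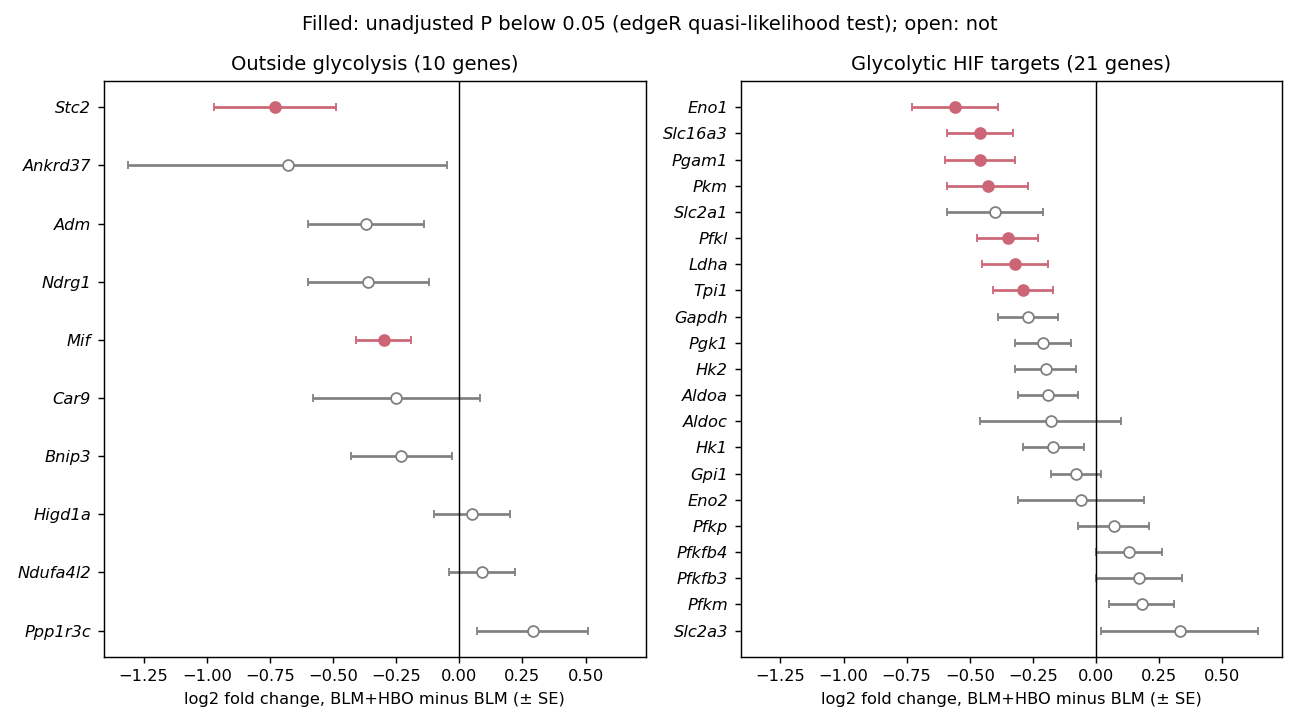
Log2 fold change (BLM+HBO minus BLM, horizontal axis, with bars for the SE derived from the edgeR test) of the 10 genes outside glycolysis and the 21 glycolytic HIF targets, filled where the unadjusted P was below 0.05. Stc2 (-0.73) and Mif (-0.30) are filled on the left, and 7 genes between -0.56 and -0.29 on the right.

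**Figure D4:**
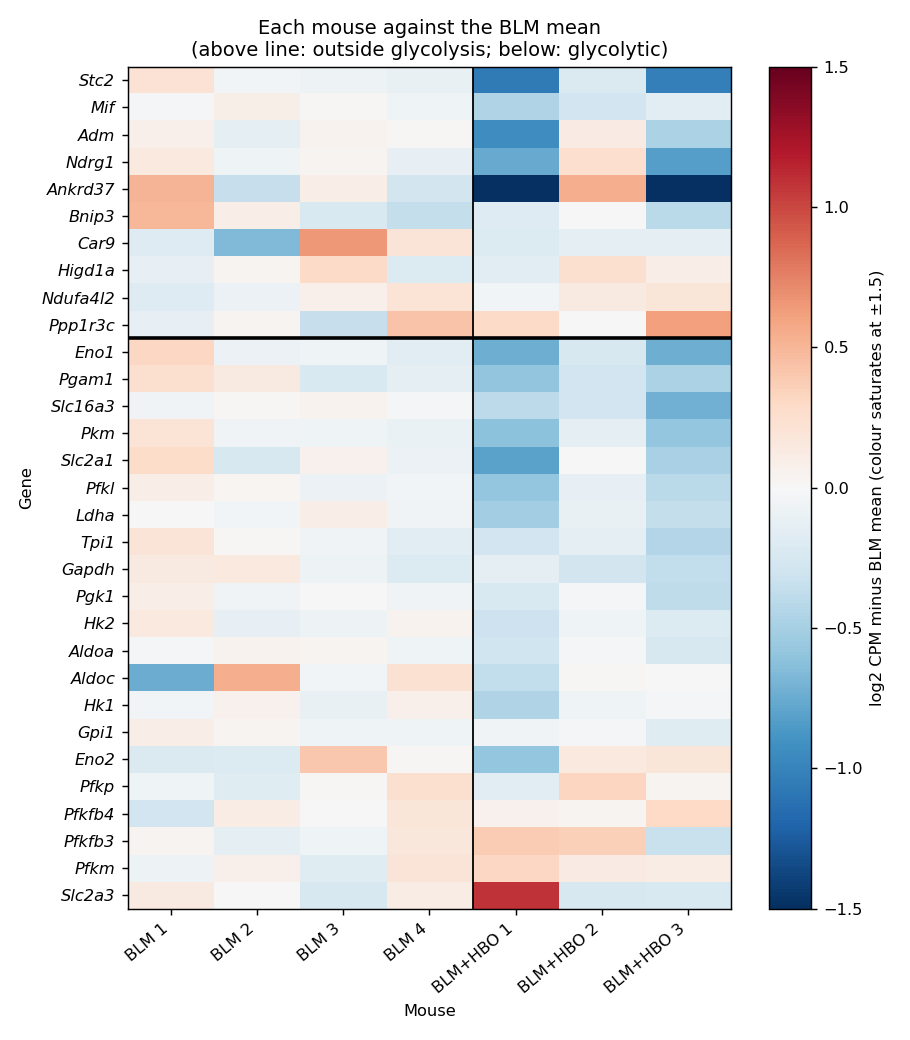
Log2 CPM of each gene in each mouse minus the mean of the 4 BLM mice (colour, blue for lower, limited to 1.5 in either direction), with the genes outside glycolysis above the black line and the glycolytic genes under it. Blue cells gather in BLM+HBO 1 and 3, where Ankrd37 reaches -2.82 and -1.61, and BLM+HBO 2 is at 0.55 for that gene.

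A wider list held 29 other HIF targets, of which 28 passed the filter. Their median log2 fold change was -0.03. Of all genes tested 5.54% were lower and 5.11% higher at an unadjusted P below 0.05 with all 7 mice. Without BLM+HBO 2, 2851 of 17879 genes passed that threshold in either direction, and 1513 of them (8.46% of all genes) were lower. Of this list 5 were lower and 1 higher at that threshold, or 7 and 3 without that mouse. The lower ones by the edgeR test included Hmox1, which breaks down heme (-1.31, SE 0.22, adjusted P = 0.423), Angptl4, an inhibitor of lipoprotein lipase (-0.70, SE 0.19, adjusted P = 0.423), and the collagen-modifying enzymes Lox (-1.37, adjusted P = 0.423) and Plod1 (-0.55, adjusted P = 0.423). Hilpda, a lipid droplet protein, was higher (0.46, SE 0.17, edgeR adjusted P = 0.434). Vegfa, the angiogenic growth factor, was at 0.28 (edgeR adjusted P = 0.626), and the hydroxylase gene Egln3 at -0.46 (adjusted P = 0.687), or -1.03 without BLM+HBO 2 (adjusted P = 0.167). Hmox1, Angptl4 and Plod1 held an unadjusted P below 0.05 in all 15 alternatives. The adjusted P of Hmox1 was 7.9e-05 by DESeq2, 4.94e-05 by edgeR without the filter and 0.0412 without BLM+HBO 2, and ran up to 0.802 in the other alternatives. Without the filter Angptl4 (adjusted P = 0.0155) and Lox (adjusted P = 0.00693) passed as well in edgeR, and without BLM+HBO 2 Lox was at -2.09 (adjusted P = 0.0381). The unadjusted P of Lox was above 0.05 without BLM+HBO 3 (edgeR adjusted P = 0.696). That of Hilpda was above 0.05 when BLM 1, BLM 2 or either of BLM+HBO 1 and 3 was left out (log2 fold change 0.34 at the smallest).

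Among 10 genes of oxygen sensing, 1 was lower at an unadjusted P below 0.05, beside 5.54% of all genes, or 2 without BLM+HBO 2, beside 8.46%. Egln1 and Egln3 are also in the other HIF list, and the gene added without BLM+HBO 2 was Egln3, counted there too. With all mice the lower gene was Hif1a, the alpha subunit of HIF-1, at 144, 143, 121 and 130 CPM in the BLM mice and 91.1, 120 and 78.6 CPM in the BLM+HBO mice. The groups did not overlap, though BLM+HBO 2 lay just under BLM 3. At that threshold Hif1a fell by 0.47 on the log2 scale (SE 0.15, edgeR adjusted P = 0.423), and without BLM+HBO 2 it was at -0.66 (adjusted P = 0.0508). Epas1, the alpha subunit of HIF-2, was at 0.15 (SE 0.18, edgeR adjusted P = 0.799). The HIF signature that the study used had 15 genes and a median log2 fold change of -0.32. It overlaps the lists above, with Adm, Mif and Ndrg1 of the members and Vegfa and P4ha1 of the other HIF targets. From the glycolytic list it holds Aldoa, Eno1, Ldha, Pgam1, Slc2a1 and Tpi1. Of these 15 genes 6 were lower and 0 higher at an unadjusted P below 0.05, beside 5.54% and 5.11% of all genes. The lower ones included Mif, Eno1, Ldha, Pgam1 and Tpi1, already given above, so this count is not a separate result.

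The genes whose pattern over the 7 mice was most like that of the members that passed the test were found by the root mean square distance of log2 CPM, each gene centred on its own mean. For Stc2 these were Clec5a, a receptor of myeloid cells, at a distance of 0.0739 and with a log2 fold change of -0.80, and Rab3il1 at 0.0748 and -0.73. For Mif they were Pik3r2, a regulatory subunit of PI3-kinase, at 0.0384 and -0.30, and H2afz, a histone variant, at 0.0429 and -0.26. The distances come from the same 7 libraries as the fold changes and carry no test.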

How the data were processed

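RNA from right lung lobes of 4 BLM and 3 BLM+HBO mice was made into NEBNext Ultra libraries. Per the labels and the study's methods, the authors mapped reads to GRCm38 with HISAT2 2.2.0 and made gene counts with featureCounts on its defaults, which ignore strand and drop multi-mapping reads and reads shared between genes. The deposited table held raw read counts, with gene coordinates and exon lengths. The annotation release was not given in the sources used here. Symbols came from GENCODE vM21 for 55141 of 55401 genes. Groups and mouse numbers came from the sample titles, and each mouse was 1 replicate.

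The filter was filterByExpr with a minimum count of 10 and a minimum total of 15. Counts were TMM-normalized (factors 0.964 to 1.04) and tested with the quasi-likelihood test of edgeR 4.0.16 in R 4.3.3, two-sided, without covariates, with Benjamini-Hochberg adjustment over 17465 genes. The biological coefficient of variation was 0.222. The SE was derived from the test, as the size of the log2 fold change divided by the square root of its F statistic. Intervals were built from this SE with 9.57 degrees of freedom. Adjusted P values are printed, and the unadjusted P is given only as its side of 0.05. CPM and FPKM were computed from the counts with TMM library sizes, FPKM with the deposited exon lengths, and log2 CPM with a prior count of 2. Totals were 18157161 to 26365969 reads per mouse. Nearly identical transcripts were sought with BLAST 2.17.0 (95% identity over 150 bases). The tests were tested on simulated data.

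The 10 genes, the other gene lists and the marker lists were chosen with earlier results of these data known. Genes named were all 10 members, the genes of the glycolytic, other HIF and oxygen-sensing lists at an unadjusted P below 0.05, 10 HIF-related genes fixed by name, and the 2 genes most like each member that passed. A gene of the other HIF list is not reported here. Alternatives were DESeq2 1.42.0, limma-trend (limma 3.58.1), RLE and upper-quartile factors, no filter, at least 1 CPM in 3 mice, the robust option of edgeR, the replicate number as a block, and leaving out each of the 7 mice.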

Additional observations from a re-analysis of the deposited data

Results flagged for a closer look

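In 31 groups of 4 BLM values (the totals and each named gene), a value was marked when its gap to the nearest other value, divided by the range, passed Dixon's 95% limit for 4 values, which chance gives in about 1 of 20 groups. The total count of BLM 4 was 19002242, with a gap of 0.971 of the range, against 18436336 to 18452895 in the other BLM mice. The log2 CPM of Pkm in BLM 1 was 9.70, with a gap of 0.839, against 9.39 to 9.44 in the others. No value of the 10 genes outside glycolysis was marked.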

How the results depend on the processing

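Of 150 recomputed fold changes of the 10 genes, 139 kept their direction and their side of an unadjusted P of 0.05. Reversals were Higd1a at -0.01 under the replicate block, at -0.01 without BLM 4 and at -0.04 without BLM+HBO 2, and Car9 at 0.01 without BLM 3 (Higd1a -0.04 to 0.16 and Car9 -0.44 to 0.01 with each mouse left out). Genes at an unadjusted P below 0.05 with a fold above 1.5 numbered 1098, 1940 without a filter on low counts, and 659 to 1914 with each mouse left out. Genes at an adjusted P below 0.05 numbered 0 by edgeR (1861 at an unadjusted P below 0.05), 0 by limma, 155 by DESeq2, 387 without a filter, and 0 to 267 with each mouse left out. The members lower at an unadjusted P below 0.05 numbered 2, and 1 to 5 with each mouse left out. Without a filter they numbered 3, with Ndrg1 added (-0.37, edgeR adjusted P = 0.508). By limma, which averages log values, Ankrd37 was at -1.29. The adjusted P over the alternatives ran from 0.045 to 0.802 for Stc2, from 0.301 to 0.802 for Mif, from 0.0308 to 0.901 for Ndrg1, from 0.0363 to 0.938 for Ankrd37 and from 0.126 to 0.88 for Adm. Same-numbered mice shared only a number: their deviations from the group means correlated at -0.00797, -0.066 and 0.161, and only number 3 correlated best with its own number. With the replicate number as a block, 1258 genes passed the unadjusted limits and 2 members were lower, and Ankrd37 was at -1.37, Ldha missed an unadjusted P of 0.05 (-0.35, edgeR adjusted P = 0.473) and Vegfa passed it (0.43, adjusted P = 0.427). The causes of these changes were not tested. Car9 rested on the fewest reads of the 10 genes, 37 to 97 per mouse, and Ankrd37 had the widest SE (0.63).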

Other observations

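Beside the fibroblast, fibrosis macrophage and heart muscle markers, these markers of the other lists passed an unadjusted P below 0.05 by the edgeR test. Of all genes tested, 5.11% were higher and 5.54% lower at that threshold. All 4 B cell markers were higher in BLM+HBO (summed level 82.7 to 180 CPM against 45.6 to 86.9 in BLM), as were 2 of 3 club cell markers (9225 to 19406 against 5443 to 11765), 1 of 6 alveolar type 2 markers (11109 to 27488 against 8745 to 16004) and 1 of 4 ciliated cell markers (292 to 483 against 235 to 439). Lower were 3 of 5 proliferation genes (100 to 188 against 166 to 201) and 2 of 4 mesothelial markers (96.9 to 432 against 366 to 653). Of the 4 alveolar macrophage markers tested, 2 were lower (486 to 670 against 510 to 1969), and the other 2 had a higher mean. Of 5 smooth muscle markers 1 was lower (358 to 493 against 418 to 657), while by the mean 3 were lower and 2 higher. Of 6 alveolar type 1 markers 1 was lower, while by the mean 3 were lower and 3 higher. The summed level of the alveolar type 1 markers was not lower (4150 to 4703 against 3279 to 4654). Of 3 skeletal muscle markers tested, 1 was higher and 1 lower (3.34 to 12.1 against 3.14 to 4.61). No marker of capillary endothelium (1684 to 2230 against 1427 to 2050), pericytes (305 to 557 against 453 to 581), adipocytes (3.25 to 10.6 against 1.43 to 7.61), neutrophils (62.0 to 383 against 107 to 168), erythroid cells (1844 to 3235 against 1412 to 3529) or T cells (31.0 to 66.9 against 28.5 to 44.5) passed. The groups of summed levels overlapped for each of these lists.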
